A study of Homo sapiens with 9 samples.

Results

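A set of 10 genes stood much higher in the third of 3 experiments than in the first and second: A2M, MMP7, HTRA1, PRSS2, CHI3L1, NTRK2, SLITRK6, PKHD1, SLC14A1 and MIAT. They are 10 of the 38179 entries in a table of read counts, and all 10 were among the 21071 genes above the expression minimum. The genes were chosen on these same counts, with no fixed fold, so their excess in experiment 3 is described here without a test. That choice also favoured secreted, adhesion and signalling genes.

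The cells were U-2 OS, an osteosarcoma line, transfected with Cas9 mRNA and then with 1 guide RNA before polyA RNA was sequenced. The NTC guide is a non-targeting control, the crXCR1 guide cuts a gene of dendritic cells and so controls for DNA breaks, and the crSUGP1 guide cuts SUGP1, which encodes a putative RNA-binding protein. All 9 libraries therefore carried Cas9 and a guide, with 3 libraries per guide and 1 library of each guide per experiment. A guide concentration of 50 nM and an incubation of 72 h are given in the labels for the plate-based screen; flasks supplied the RNA, and no separate time is given for them. Each group received 1 guide sequence and was sequenced as a pool of cells, and untransfected cells were not analysed here. An experiment is a single event, so whatever differed between experiments (culture, transfection, extraction or sequencing) cannot be told apart.

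Several of the 10 genes act at the cell surface or outside the cell, a trait that their choice favoured and so not a result. MMP7 (a matrix metalloprotease), HTRA1 (a secreted serine protease) and PRSS2 (a trypsinogen) cut extracellular proteins, whereas A2M encodes alpha-2-macroglobulin, a plasma protein that traps proteases of many classes. CHI3L1 is a secreted chitinase-like protein without chitinase activity. NTRK2 encodes TrkB, the receptor for BDNF, SLITRK6 a neuronal transmembrane protein with leucine-rich repeats, PKHD1 the ciliary protein fibrocystin and SLC14A1 the urea transporter UT-B. MIAT is a long noncoding RNA.

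The libraries held 68712738 to 107952835 counts. The share of mitochondrial counts was 4.58% to 4.77% in experiment 3 against 4.03% to 5.01% in the other experiments, and TMM scaling factors were 1.021 to 1.035 against 0.975 to 1.003. SUGP1 stood at 6.52 to 7.88 CPM (counts per gene scaled to a common library size) in the crSUGP1 libraries and 28.2 to 31.6 CPM in the others, as the labels say. Of 12 osteoblast markers, 9 passed the minimum, with COL1A1 at 554 to 1020 CPM, but SP7, IBSP and COL1A2 had at most 24 counts in any library.

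Promoter windows from RefSeq (GRCh38.p14) were available for 9 of the 10 genes, A2M being the exception. In 120 bases upstream of the start, printed 5′ to 3′ because these genes moved together, capitals mark matches to the motifs described below.
MMP7, chr11:102530748-102530867, minus strand: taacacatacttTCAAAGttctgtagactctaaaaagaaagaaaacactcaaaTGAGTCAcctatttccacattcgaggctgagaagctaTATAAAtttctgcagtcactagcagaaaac
SLITRK6, chr13:85799420-85799539, minus strand: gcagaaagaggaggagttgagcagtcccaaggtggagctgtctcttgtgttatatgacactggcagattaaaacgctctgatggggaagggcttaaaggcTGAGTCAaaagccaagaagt
PRSS2, chr7:142770850-142770969, plus strand: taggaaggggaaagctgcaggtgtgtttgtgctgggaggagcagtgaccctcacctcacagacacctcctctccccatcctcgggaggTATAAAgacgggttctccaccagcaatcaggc
CHI3L1, chr1:203186705-203186824, minus strand: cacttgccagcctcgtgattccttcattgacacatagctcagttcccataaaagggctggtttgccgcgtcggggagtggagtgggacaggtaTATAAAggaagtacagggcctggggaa
MIAT, chr22:26646309-26646428, plus strand: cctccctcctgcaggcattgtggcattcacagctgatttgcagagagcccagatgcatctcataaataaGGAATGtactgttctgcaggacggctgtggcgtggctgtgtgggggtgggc

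The motifs were searched on both strands of the 250 bases upstream of each start, in 13 windows of the 9 genes, since NTRK2 and SLC14A1 have several starts. The AP-1 motif TGANTCA was in 3 of these 13 windows (those of MMP7, SLITRK6 and PRSS2), and in 6.57% of all 35116 windows. In MMP7 it lay 67 to 61 bases before the start, and in SLITRK6 20 to 14. The PRSS2 match, at 166 to 160 bases, lies upstream of the stretch shown. The letters TATAAA were also in 3 of the 13 (MMP7, CHI3L1 and PRSS2), at 22 to 32 bases before the start, and in 10.7% of all windows. The TEAD motif GGAATG was in 3 of the 13, 1 each of MIAT, NTRK2 and SLC14A1 (11.9% of all windows). The TCF/LEF motif CTTTGA was in 3 of the 13, 1 each of MMP7, NTRK2 and SLC14A1 (11.2%). The STAT motif TTCNNNGAA was in PRSS2 alone (6.57%), the RUNX motif TGTGGT in NTRK2 alone (11%), the CRE letters TGACGT in SLITRK6 alone (7.1%) and the E-box CACGTG in none (6.34%). GC content of the windows ran from 33.6% in MMP7 to 81.2% in HTRA1, against a median of 58% over all windows. These matches are letters and not binding sites, and no motif of the 8 was found in all 9 genes.

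A2M, the protease inhibitor (ENSG00000175899, GRCh38 chromosome 12, 9067664 to 9116229, minus strand), had 9.41, 13.1 and 69.0 CPM in the NTC libraries of experiments 1, 2 and 3, scaled by TMM. It had 9.08, 13.2 and 24.7 CPM with crXCR1 and 9.24, 13.6 and 43.1 CPM with crSUGP1. The guides were close together within experiments 1 and 2, and the 3 libraries of experiment 3 were all above the other 6 but spread widely. The fitted excess of experiment 3 over the mean of the others was 3.89-fold (log2 1.96 ± 0.15, SE). A2M-AS1, an antisense gene that overlaps it, had 145 to 413 counts and a log2 excess of 0.81. The sources do not say whether counting was stranded, and reads of overlapping genes may not be separated.

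**Figure D1:**
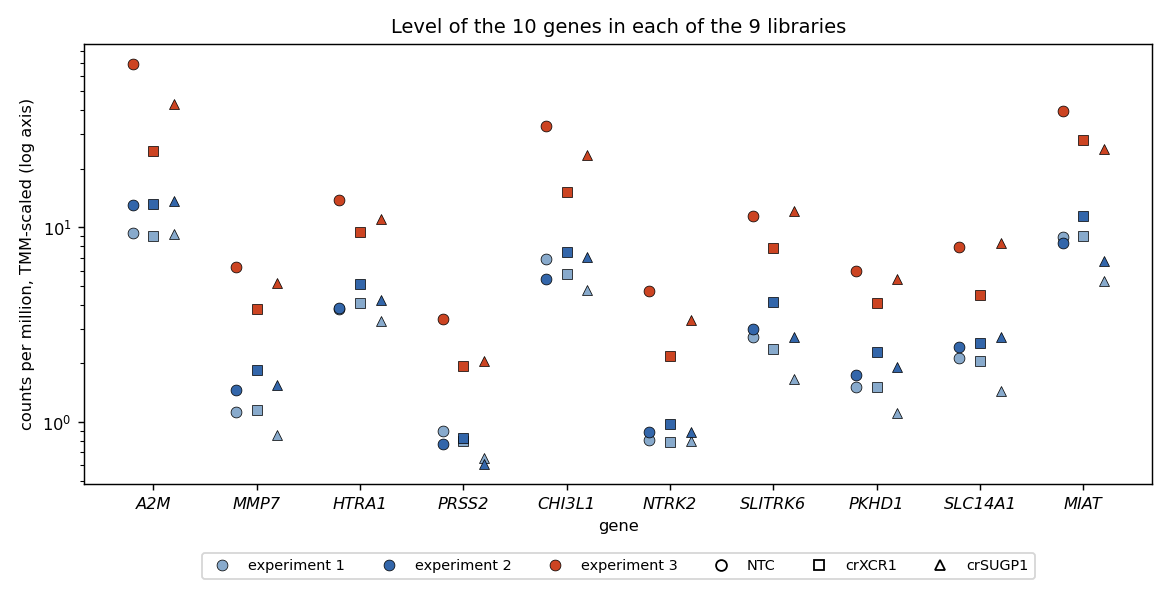
TMM-scaled CPM (log axis) of each gene in each library. Colours mark the experiments and symbols the guides, and each point is 1 library. For every gene the 3 points of experiment 3 lie above the other 6; A2M runs from 9.08 to 13.6 CPM in experiments 1 and 2 and from 24.7 to 69.0 CPM in experiment 3.

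The proteases followed the same order. MMP7 (ENSG00000137673, chromosome 11, 102520508 to 102530750) had 1.13, 1.47 and 6.28 CPM with NTC in experiments 1 to 3, 1.15, 1.86 and 3.79 CPM with crXCR1, and 0.863, 1.55 and 5.19 CPM with crSUGP1. Experiment 2 was above experiment 1 with each guide, and experiment 3 was 3.84-fold above their mean. HTRA1 (ENSG00000166033, chromosome 10, 122458551 to 122514907) had 3.79, 3.87 and 13.8 CPM with NTC, 4.09, 5.09 and 9.46 CPM with crXCR1, and 3.30, 4.22 and 11.1 CPM with crSUGP1. Its excess of 2.82-fold was the lowest of the 10. PRSS2 (ENSG00000275896, chromosome 7, 142760398 to 142774564) had 0.895, 0.776 and 3.38 CPM with NTC, 0.804, 0.824 and 1.93 CPM with crXCR1, and 0.653, 0.608 and 2.06 CPM with crSUGP1. This was 49 to 311 counts per library, an excess of 3.18-fold. The near-identical copies PRSS1 and PRSS3 had at most 2 counts in any library, so how reads were split among them is uncertain.

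CHI3L1 (ENSG00000133048, chromosome 1, 203178931 to 203186704) had 6.85, 5.45 and 33.1 CPM with NTC, 5.76, 7.48 and 15.2 CPM with crXCR1, and 4.78, 7.08 and 23.5 CPM with crSUGP1. The excess was 3.73-fold. The lowest library of experiment 3 was 2.03-fold above the highest of the others.

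Among receptors and surface proteins, NTRK2 (ENSG00000148053, chromosome 9, 84668551 to 85027054) had 0.811, 0.889 and 4.71 CPM with NTC, 0.793, 0.977 and 2.19 CPM with crXCR1, and 0.80, 0.893 and 3.36 CPM with crSUGP1. The first and second experiments differed little, and the excess was 3.89-fold. SLITRK6 (ENSG00000184564, chromosome 13, 85792790 to 85806683) had 2.72, 2.99 and 11.4 CPM with NTC, 2.37, 4.15 and 7.80 CPM with crXCR1, and 1.66, 2.73 and 12.2 CPM with crSUGP1. Its highest library was crSUGP1 of experiment 3, and the excess was 3.82-fold. PKHD1 (ENSG00000170927, chromosome 6, 51615299 to 52087613) ran from 1.11 to 2.30 CPM in experiments 1 and 2 and had 6, 4.11 and 5.44 CPM with NTC, crXCR1 and crSUGP1 in experiment 3, an excess of 3.11-fold. SLC14A1 (ENSG00000141469, chromosome 18, 45687025 to 45752520) ran from 1.45 to 2.72 CPM and had 7.97, 4.48 and 8.36 CPM in experiment 3, an excess of 3.09-fold. The margin was narrowest here, with the lowest library of experiment 3 1.65-fold above the highest of the others.

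MIAT (ENSG00000225783, chromosome 22, 26646411 to 26676475) had 8.93, 8.28 and 39.7 CPM with NTC, 9.03, 11.4 and 28.0 CPM with crXCR1, and 5.33, 6.72 and 25.2 CPM with crSUGP1. The crSUGP1 library was the lowest of its experiment each time, and the excess was 3.77-fold. Z99774.1, an antisense gene that overlaps MIAT, had 70 to 685 counts and a log2 excess of 2.21, while MIATNB, which overlaps it on the same strand, had 575 to 1144 counts and a log2 excess of 0.33.

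Groups of libraries did not overlap for 10 of 10 genes, which the rule itself chose, and 14.7% of all genes tested had every library of experiment 3 above the other 6. The genes took 0.0105% to 0.0199% of all counts in experiment 3 and 0.00284% to 0.005% in the others. In bulk RNA, more cells that express a gene and more RNA per cell cannot be told apart. All 10 also passed the expression minimum in experiments 1 and 2 alone.

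Per kilobase of exon (GENCODE v44 union), CHI3L1, HTRA1 and A2M were the most abundant in experiments 1 and 2, at means of 1.85, 1.80 and 1.78 CPM per kilobase (RPKM), with overlapping ranges. SLITRK6, PRSS2, MMP7 and MIAT formed a second level between 0.627 and 0.521 RPKM, again with overlapping ranges, followed by SLC14A1 at 0.309 RPKM, whose range reached into theirs. PKHD1 at 0.0965 and NTRK2 at 0.0259 RPKM were lowest, with unions of 17443 and 33162 bases that include exons which may not be used in these cells. In experiment 3, A2M (7.22 RPKM), CHI3L1 (7.12) and HTRA1 (5.09) still led.

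At a mean of 1 CPM or more, 16793 genes were tested, and the 10 genes held ranks 2 to 12 by their excess, the value they were chosen on. That mean takes in experiment 3. NTRK2 and PRSS2 reached at most 0.977 and 0.895 CPM in experiments 1 and 2. Over all 21071 genes tested, with no cut on the mean, the 10 genes held ranks 15 to 53. At 1 CPM or more, only Z99774.1, at log2 2.21, ranked above them. COL3A1, a fibrillar collagen, lay between SLC14A1 and HTRA1 at log2 1.5. Just inside were SLC14A1 at log2 1.63 and HTRA1 at 1.49, and just outside were EGR2 at 1.48, SORCS1 at 1.45 and FOLR1 at 1.42. In this contrast 7.46% of all genes were called higher and 3.13% lower by edgeR, that is, at an adjusted p of at most 0.05 and a log2 change of at least 0.5.

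**Figure D2:**
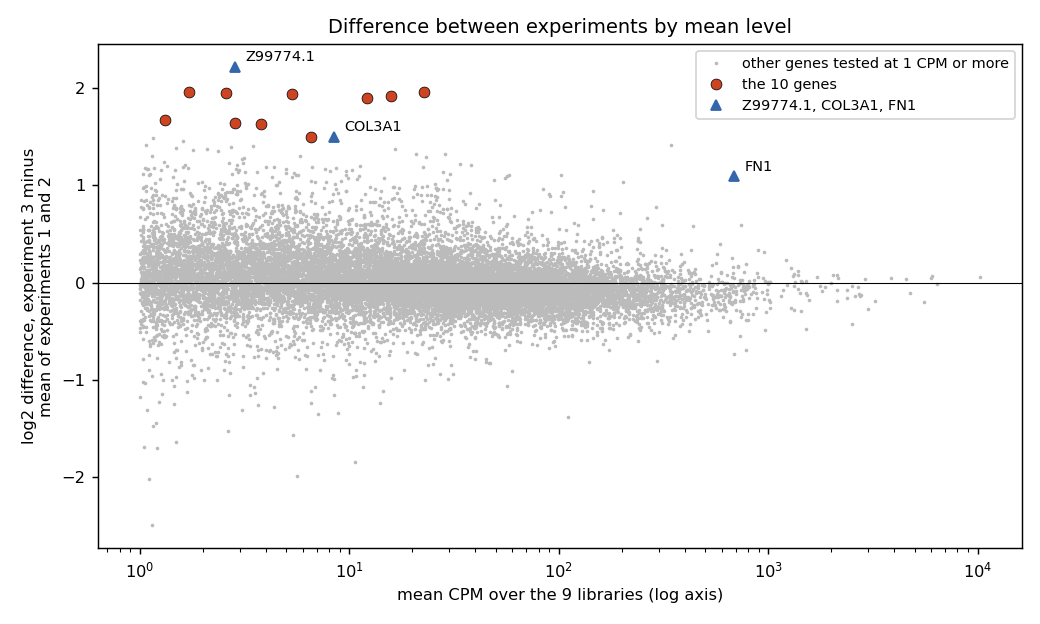
Log2 difference between experiment 3 and the mean of experiments 1 and 2 against mean CPM (log axis), 1 point per gene at 1 CPM or more. The 10 genes lie between 1.49 and 1.96; Z99774.1 is above them at 2.21, and FN1 at 1.09 has a far higher mean level.

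The genes most like the 10 over the 9 libraries, by Pearson r with their mean standardised log2 CPM, were FN1 (0.9975), UNC5D (0.9947), C15orf62 (0.9919), COL6A3 (0.9902) and SORCS1 (0.9889). FN1, which encodes fibronectin, averaged 473, 518 and 1060 CPM in experiments 1, 2 and 3. COL6A3, a collagen VI chain, averaged 74.9, 83.7 and 147 CPM. The members' own r was 0.97 to 0.996 and 220 genes reached 0.95. The points share libraries and mostly separate experiment 3 from the rest, so these values are a description.

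Within experiment 3, where each guide has 1 library, the level differed between the libraries. The crXCR1 library was the lowest for 9 genes, MIAT being the exception, and the NTC library was the highest for 8, with SLITRK6 and SLC14A1 highest in crSUGP1. Relative to each guide's own libraries of experiments 1 and 2, the excess was smallest with crXCR1 for 10 of 10 genes, at a median of 2.34-fold against 4.32-fold with NTC and 4.01-fold with crSUGP1. For A2M it was 6.22-fold with NTC, 2.25-fold with crXCR1 and 3.85-fold with crSUGP1, and for SLITRK6 4.01-fold, 2.49-fold and 5.72-fold. Among other genes at 1 CPM or more that were called higher with a log2 excess of at least 1, crXCR1 had the smallest excess in 85.6% of 97. Over all genes tested with counts in every library, it was the smallest in 34.7%. The excess was largest with NTC for 7 of the 10 genes, for 43.3% of those 97 and for 30.5% of all. These counts of genes rest on the same libraries and do not replicate a guide.

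**Figure D3:**
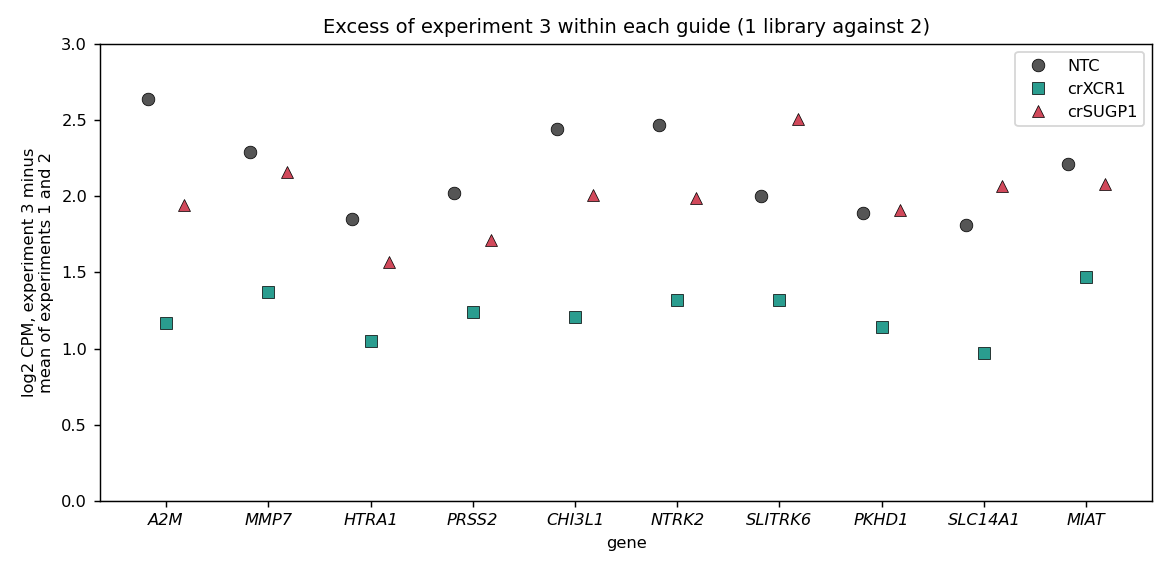
Log2 CPM of experiment 3 minus the mean of experiments 1 and 2 within each guide, for each gene (1 library against 2). The crXCR1 points lie between 0.972 and 1.47 and are the lowest for all 10 genes; NTC runs from 1.81 to 2.64 and crSUGP1 from 1.57 to 2.51.

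An interaction term set the excess of each guide against that of the others. The fit thus held a term for experiment 3 with each guide. The experiment term, or block, named below is a further term for experiment 2 against experiment 1. Each guide has 1 library in experiment 3. The standard errors and p values of these fits therefore rest on the spread between experiments 1 and 2. Where the block is fitted, the difference shared by the guides is first taken out. In both fits they hold no spread between libraries of experiment 3. The genes were also chosen for high values in those same libraries. The values are therefore a description and do not show that the excess differs between guides. Without an experiment term, edgeR called 0 of 10 genes in any of the 3 comparisons, against 0% of all genes for crXCR1 against NTC, 0% for crSUGP1 against crXCR1 and 0.019% for crSUGP1 against NTC, and DESeq2 called 0 as well. That count depended on the expression minimum. With no minimum, the same edgeR fit called 9 of the 10, all but PRSS2: 8 for crXCR1 against NTC (0.0774% of all genes), 7 for crSUGP1 against crXCR1 (0.616%) and 1 for crSUGP1 against NTC (0.613%). The prior degrees of freedom that edgeR estimated for the spread were 10.7 with the minimum and infinite without it.

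With the minimum, the genes at an unadjusted p under 0.05 numbered 10 for crXCR1 against NTC (1.88% of all genes), 8 for crSUGP1 against crXCR1 (11.7%) and 1 for crSUGP1 against NTC (10.3%). All 10 were lower with crXCR1 than with NTC, by 0.73 to 1.48 on the log2 scale, with an adjusted p of 1. With the experiment as a block, a fit added after seeing the data with 2 residual degrees of freedom, A2M passed the threshold in all 3 comparisons, SLITRK6, MIAT and SLC14A1 for crSUGP1 against crXCR1, and no other gene of the 10. The log2 difference of A2M's excess was -1.47 for crXCR1 against NTC. The blocked fit called 0.00475% of all genes for crXCR1 against NTC, 0.603% for crSUGP1 against crXCR1 and 0.56% for crSUGP1 against NTC. The 3 comparisons share the libraries of experiment 3.

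The guides were compared over all 3 experiments to ask whether editing SUGP1 or XCR1 altered these genes. Without a block, 0 of 10 genes were called by edgeR, and 0 had an unadjusted p under 0.05, for crSUGP1 against NTC (0.783% of all genes called), crSUGP1 against crXCR1 (0.774%) and crXCR1 against NTC (0%). DESeq2 also called 0. The lowest adjusted p values with edgeR were 0.767, 0.802 and 1, with standard errors of 0.60 to 0.80 on the log2 scale. The genes were chosen for a large difference between experiments, which this fit counts as spread. Its 0 calls therefore cannot show that editing left these genes unchanged. With the experiment as a block, standard errors dropped to 0.12 to 0.19. MIAT was then lower with crSUGP1 than with NTC (log2 -0.58 ± 0.12, SE, edgeR adjusted p = 0.00554) and than with crXCR1 (-0.53 ± 0.13, adjusted p = 0.00831), in 3 of 3 experiments each. PRSS2 was lower with crSUGP1 than with NTC (-0.58 ± 0.15, edgeR adjusted p = 0.0182), also in 3 of 3. Against crXCR1, the control for DNA breaks, PRSS2 was not called (-0.12 ± 0.16, edgeR adjusted p = 0.639). With crXCR1 it was also below NTC, though not called (-0.46 ± 0.15, edgeR adjusted p = 0.384).

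The blocked fit called 2 of 10 genes for crSUGP1 against NTC (2.85% of all genes), 1 of 10 against crXCR1 (3.9%) and 0 of 10 for crXCR1 against NTC (0.00475%). In the last comparison 4 genes (A2M, NTRK2, CHI3L1 and PRSS2) had an unadjusted p under 0.05. Whether MIAT or PRSS2 responded more to SUGP1 than the other genes did was not tested. NTC and the other groups serve in several of these comparisons, which are therefore not independent.

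**Figure D4:**
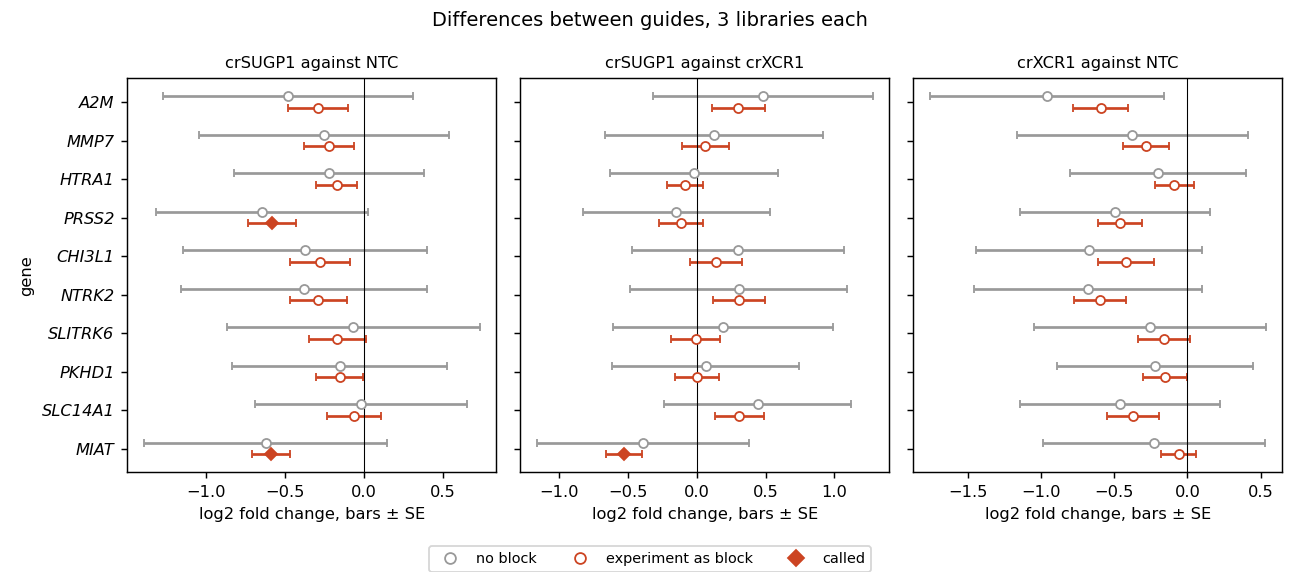
Log2 fold change with its standard error for each gene in the 3 comparisons of guides, without a block (grey) and with the experiment as a block (red); filled diamonds are called. MIAT is called against both controls and PRSS2 against NTC, in the blocked fit only.

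Experiments 1 and 2 were compared because the choice of genes did not use their difference. Of the 10 genes, 9 were higher in experiment 2 and PRSS2 was lower, and 0 were called by edgeR (0.0332% of all genes were), with a lowest adjusted p of 0.381, and DESeq2 called 0. The log2 difference was 0.64 ± 0.19 (SE) for MMP7, 0.55 ± 0.20 for SLITRK6, 0.54 ± 0.17 for PKHD1 and 0.53 ± 0.20 for A2M, and 5 genes had an unadjusted p under 0.05 against 8.57% of all genes. Among libraries of 1 guide, the SD of log2 CPM was 0.711 to 1.16 for these genes (median 0.932), against a median of 0.119 over all genes tested. Those libraries come from different experiments, so the choice of genes itself made this SD large. Once the experiment was taken out, the medians were 0.273 and 0.0767.

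Families and pathways of these genes were compared between experiment 3 and the others, leaving out the 10. Of 243 listed genes tested, 36 were called higher and 20 lower. Over all genes tested, 7.46% were called higher and 3.13% lower, and the called counts per list below are to be read against these shares. An unadjusted p under 0.05 was common in this contrast, at 52.7% of all genes tested, and the counts at that level below are to be read against it. Among matrix metalloproteases and their inhibitors 5 of 16 rose and 2 fell. MMP13 (log2 1.27), MMP9 (1.21) and MMP2 (0.72) rose, the last from 165 and 160 to 267 CPM, as did the inhibitor TIMP1 (0.58). MMP3 fell by 1.38 and MMP1 by 1.28 on the log2 scale, MMP3 from 120 and 160 to 53.7 CPM.

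Of 12 neurotrophins and receptors 3 rose and 0 fell. SORCS1, a sorting receptor, rose by log2 1.45, NTRK3 by 1.28 and NGFR, the low-affinity neurotrophin receptor, by 0.96, from 21.7 and 21.0 to 41.7 CPM. BDNF, a ligand of TrkB, was not called, since its log2 change of -0.27 (edgeR adjusted p = 0.0014) missed the fold threshold. Of the alpha-2-macroglobulin family 2 of 5 rose, C4A (0.93, a gene with a near-identical copy, so its counts are uncertain) and CD109 (0.55), and of the HtrA and trypsin-like proteases 2 of 8, led by HTRA3 (0.79). Among SLITRK partners edgeR called 1 of 6 higher, and among urea and water channels 1 of 2, whereas DESeq2 called 0 of both. Of 3 chitinase-like genes 0 were called and 2 had an unadjusted p under 0.05, and of 5 polycystic disease genes 0 and 4, by edgeR; DESeq2 called 0 of both.

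Of 11 Wnt targets 5 rose and 1 fell. RNF43 (log2 0.96), NKD1 (0.95), NOTUM (0.92) and AXIN2 (0.73), all negative regulators of Wnt signalling, were among those that rose. The gene that fell was DKK1, also a negative regulator, by 1.46 on the log2 scale (edgeR adjusted p = 0.000814), with at most 24 counts in any library. The summed level of the list was 379 to 385 CPM in experiment 3 against 258 to 287 CPM in the others. Genes of cell cycle exit and FOXO targets rose in 6 of 14 and fell in 0, with PIK3IP1 at 0.97, CDKN2B at 0.93, TXNIP at 0.86 and CCNG2 at 0.80. Of 20 proliferation genes 0 were called by edgeR or DESeq2, 6 had an unadjusted p under 0.05, and their median log2 difference was -0.053. Of 16 cholesterol synthesis genes 0 were called by either tool and 7 had an unadjusted p under 0.05.

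STAT3 and acute phase targets moved both ways, with 3 of 13 higher and 2 lower: SERPINA3 (log2 1.16) and C1R (0.91) rose, and SAA2 fell by 1.16 and SAA1 by 0.96 on the log2 scale. SAA1 and SAA2 are near-identical copies, so their counts are uncertain. NF-kB targets gave 3 of 14 lower and 0 higher, among them CXCL8, which fell by 0.79, and CXCL3, which fell by 0.69. YAP-TEAD targets gave 3 of 20 lower and 1 higher, with CCN1 falling from 413 and 378 to 265 CPM. Of TGF-beta targets 1 of 14 was called and rose (PMEPA1, log2 0.77), while 10 lay above 0 and 12 had an unadjusted p under 0.05 by edgeR. Of hypoxia targets 1 of 14 was called and rose, CA9, with at most 62 counts in any library. Of these 14, 7 lay above 0, and all 14 had an unadjusted p under 0.05 by edgeR. Of 10 glucocorticoid targets PDK4 rose (1.03) and MAOA fell by 0.71.

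**Figure D5:**
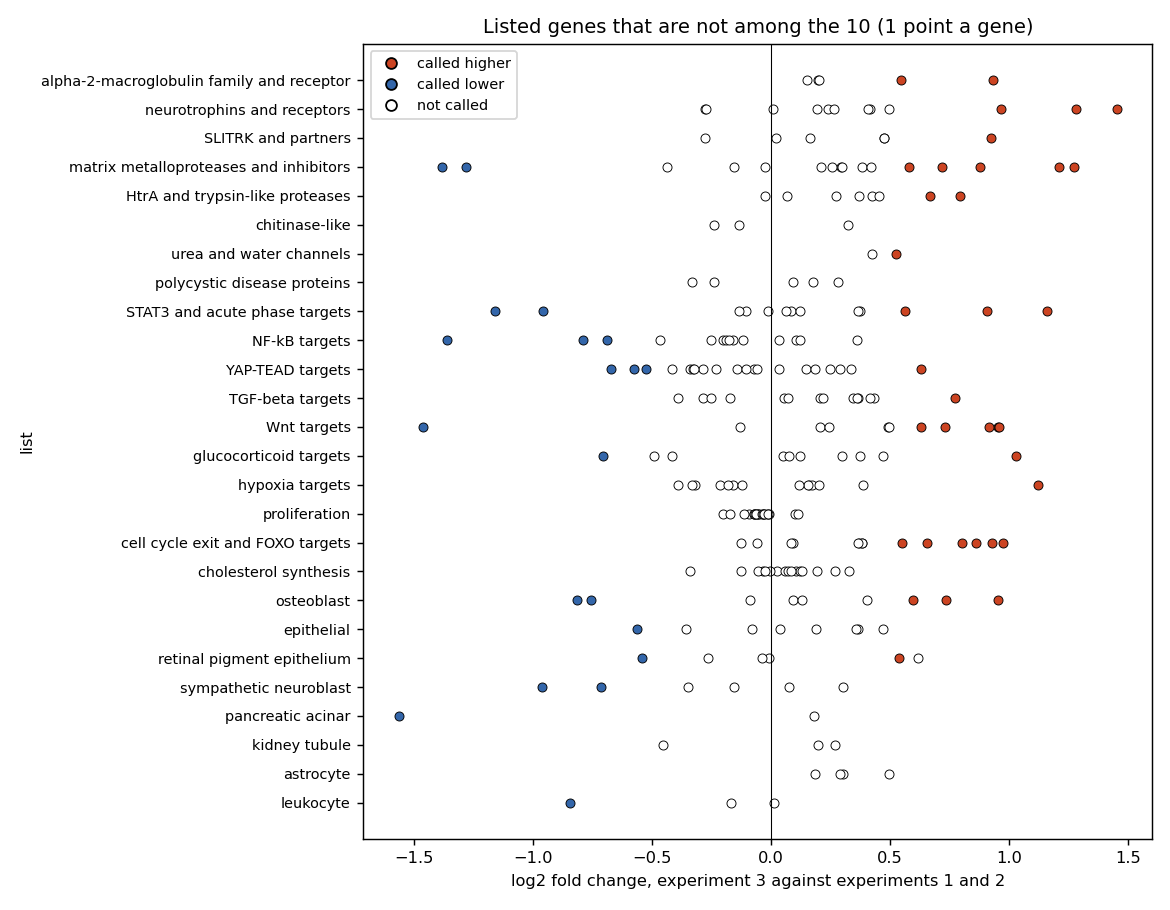
Log2 fold change between experiment 3 and experiments 1 and 2 of each listed gene that passed the expression minimum, without the 10 genes; filled points were called. Wnt targets and cell cycle exit genes hold 5 and 6 genes called higher, and the 20 proliferation genes lie near 0 with none called.

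Markers of other cell types were measured beside these changes, and their part in the result was not tested. Markers under the expression minimum entered no test. Pancreatic acinar markers, which could accompany PRSS2, summed to 2.59 to 2.94 CPM in experiment 3 and 1.85 to 3.05 CPM in the others, with 0 of 2 tested called higher, 1 lower and CPB1, PNLIP and AMY2A at 0 counts. Astrocyte markers, some of which accompany CHI3L1, summed to 88.9 to 97.4 CPM against 68.7 to 76.7 CPM, with 0 of 4 tested called by edgeR and 1 by DESeq2. All 4 were higher and had an unadjusted p under 0.05, 3 with no overlap between the groups of libraries, and AQP4 and S100B had no more than 4 counts. Kidney tubule markers had 0 of 3 tested called by either tool (7.80 to 11.1 against 8.01 to 9.26 CPM), with UMOD at 0 counts. All 3 had an unadjusted p under 0.05 by edgeR, but 2 were higher and PAX8 was lower (log2 -0.45). Leukocyte markers had 0 of 3 tested called higher and 1 lower (16.2 to 18.3 against 28.0 to 31.8 CPM), with CD3E at 0 counts.

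Epithelial markers had 0 of 8 tested called higher and 1 lower, CDH1 (1470 to 1520 against 1570 to 1840 CPM in sum). Retinal pigment epithelium markers had 1 of 6 tested higher and 1 lower (679 to 867 against 655 to 949 CPM). TYR and TTR had 0 counts. BEST1 alone had 641 to 830 against 621 to 916 CPM, so that sum mostly follows 1 gene. Sympathetic neuroblast markers had 0 of 6 tested higher and 2 lower by edgeR, with 1 called by DESeq2 (11.8 to 13.2 against 13 to 14 CPM). Osteoblast markers had 3 of 9 tested higher and 2 lower by edgeR, with 4 called by DESeq2 (951 to 1080 against 619 to 788 CPM). COL1A1 rose by log2 0.59, whereas ALPL, the alkaline phosphatase of mineralizing bone, fell by 0.81 and SPP1, osteopontin, by 0.76.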

How the data were processed

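PolyA RNA of 9 U-2 OS libraries was analysed. The authors trimmed reads, aligned them to GRCh38 and deposited raw counts per gene, with no normalization; alignment used STAR 2.7.9a and trimming cutadapt 2.4 within Trim Galore 0.6.7, per the submitters' notes, which also list R 4.1.0, DESeq2 1.32.0 and FastQC 0.11.5. Counting was in SeqMonk according to the paper. The 10 genes and all gene lists were chosen with earlier results of these data known.

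Of 51 repeated names, 31 entries of 0 and 2 identical ones were dropped. Genes were kept if any library had a log2 CPM over -2, scaled by TMM and tested by edgeR 4.0.16 (quasi-likelihood, R 4.3.3) over all 9 libraries, with p-values adjusted over all genes (Benjamini-Hochberg). DESeq2 1.42.0 was an alternative. The named genes were the 10 and up to 4 called genes per list at 1 CPM or more. The 5 genes most alike and the 5 with the largest excess were also named. MMP2, TIMP1, NTRK3, BDNF, DKK1, CA9, PAX8, BEST1 and markers at 0 counts were named after their values were seen. Likeness and the SD among libraries used log2 of CPM plus 0.5. The fits were tested on simulated data. Libraries with the same replicate number share an experiment according to the paper. Deviations from group means correlated at 0.498 to 0.902 in 9 same-numbered pairs and at -0.854 to 0.66 in 18 others, over 16793 genes, so the experiment was also fitted as a block. Replicates differed beyond sampling noise. The separation of the cultures within an experiment is not stated, so p-values measure the spread between libraries.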

Additional observations from a re-analysis of the deposited data

Results flagged for a closer look

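In the fit with the experiment as a block, which was chosen after seeing the data, the excess of experiment 3 passed the threshold for a difference between guides in 4 of the 10 genes. Without the block the test called 0 with the expression minimum and 9 with no minimum. For A2M the log2 difference of the excess was -1.47 for crXCR1 against NTC (edgeR adjusted p = 6.78e-07), -0.70 for crSUGP1 against NTC (0.00528) and 0.77 for crSUGP1 against crXCR1 (0.00452). For crSUGP1 against crXCR1 it was 1.20 for SLITRK6 (edgeR adjusted p = 0.0103), 1.07 for SLC14A1 (0.0214) and 0.61 for MIAT (0.0466). Each rests on 1 library of experiment 3 per guide, so these p values hold no spread between libraries of that experiment and do not show that the guides differ.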

How the results depend on the processing

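The excess of each gene in experiment 3 was 1.31 to 2.31 on the log2 scale in 160 values under other scalings, no filter, DESeq2, the experiment as sole term, either earlier experiment alone as reference, and without each library, and 0 changed sign. The lowest was HTRA1 without the NTC library of experiment 3 and the highest A2M without the crXCR1 library of experiment 3. The genes were chosen for this excess, so its unchanged sign is a description and no test. With the replicate block, 2 genes were called for crSUGP1 against NTC and 1 against crXCR1, with 601 and 821 of all genes against 165 and 163 without it; it changed no other call between guides. Without single libraries or whole experiments, 0 to 1 of the 10 genes were called for crSUGP1 against NTC and 0 to 1 against crXCR1; the 1 was MIAT without experiment 3 (log2 -0.53 and -0.76, edgeR adjusted p = 0.0236 and 0.00241). All genes called then numbered 0 to 419 and 1 to 491. DESeq2 called 271 of all genes for crSUGP1 against crXCR1, and fits to the 6 libraries compared called 104 and 102. For crXCR1 against NTC 0 of the 10 were called in all alternatives. With no filter, 1 gene was called between experiments 1 and 2 (MMP7, log2 0.64, edgeR adjusted p = 0.0412), with 27 of all genes against 7; without single libraries 0 to 15 of all genes were called, and 0 with the experiment as sole term. For the difference of the excess between guides, 0 genes were called under RLE scaling and DESeq2, 9 with no filter and 4 with the replicate block; DESeq2 gave 0, 1 and 5 genes at an unadjusted p under 0.05 for crSUGP1 against NTC, crSUGP1 against crXCR1 and crXCR1 against NTC. The cause was not tested. Listed genes called ranged from 53 to 64 around 56. Counts of 49 to 85 per library for PRSS2 in experiments 1 and 2 limit its precision, and the standard errors for the difference of the excess between guides hold no spread of experiment 3, which has 1 library per guide.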
